A study of Homo sapiens with 10 samples.

Results

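The RNA of the secreted matrix proteins fibronectin (FN1), EDIL3, LOX, HTRA1 and MFAP5 was followed through 3 subsets of breast cancer cells (BCCs). The subsets differ in the activity of the promoter of the stem cell gene Oct4A. The arrays do not measure protein. These 5 genes were taken from the 12083 genes that carry a single symbol on the arrays, and every probe set with one of the 5 symbols was read on its own, which gave 16 of the 25750 probe sets. FN1 had 7 probe sets, EDIL3 and MFAP5 had 3 each, LOX had 2 and HTRA1 had 1. FN1, EDIL3, MFAP5 and HTRA1 stand in the study's own list of genes that differed between Oct4hi and Oct4low BCCs, so their values in that comparison chose them and are given as a description without a test. The basis on which LOX was chosen is not known, and it is described in the same way. Of the 16 probe sets, 12 passed the filter on dim values, which asked for a value at or above the median of its array in at least 2 arrays, and the remaining 4 are described without a test.

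The cells were MDA-MB-231, a human line from a metastatic site of a breast cancer, which had been stably transfected with pEGFP1-Oct3/4, a plasmid that places GFP under the Oct4A promoter, and selected with neomycin. The subsets were sorted by GFP from these stable transfectants and share the line, the plasmid and the selection. Oct4low BCCs were the lowest 5% for GFP by the labels (4 arrays), Oct4med BCCs came from between the extremes (2 arrays), and Oct4hi BCCs were the top 5% (4 arrays). The study's methods also give the lower 5% for the Oct4low gate, whereas its results text gives another share. The labels and methods are followed here. GFP reports the activity of the promoter and not the Oct4 protein, and a single line limits the subsets as a model. Total RNA (100 ng per array) was measured on Affymetrix U133 Plus 2.0 arrays, and all values below are log2 intensities, or differences between them, on a scale where levels that differ by 1 unit differ by a factor of 2. Levels are compared only within a probe set, never between probe sets. The RNA was taken from whole sorted populations, so fewer cells that express a gene and less RNA in each cell cannot be told apart.

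Fibronectin is a large glycoprotein that cells secrete as a dimer and assemble into fibrils through integrins, chiefly the integrin that recognizes its Arg-Gly-Asp motif. The fibrils serve as a scaffold on which other matrix proteins are laid down. EDIL3 (also called DEL-1) is a secreted ligand of integrins, LOX is the copper-dependent enzyme that cross-links collagen and elastin, HTRA1 is a secreted serine protease that cleaves fibronectin and other matrix proteins, and MFAP5 (MAGP-2) is a glycoprotein of the fibrillin microfibrils that carry elastin. In carcinoma cells, fibronectin is widely used as a marker of a mesenchymal state.

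The 250 bases before the start of the gene are shown for FN1, EDIL3, LOX and HTRA1, and no such sequence was available for MFAP5. The sequences are from the RefSeq promoter table (GRCh38.p14), which held 4 of the 5 genes, and are written 5′ to 3′ on the strand of the gene, with motif matches in capitals. FN1 lies on the minus strand (chr2:215436069-215436318), as do EDIL3 (chr5:84384881-84385130) and LOX (chr5:122078260-122078509), and HTRA1 lies on the plus strand (chr10:122461303-122461552).
FN1 promoter: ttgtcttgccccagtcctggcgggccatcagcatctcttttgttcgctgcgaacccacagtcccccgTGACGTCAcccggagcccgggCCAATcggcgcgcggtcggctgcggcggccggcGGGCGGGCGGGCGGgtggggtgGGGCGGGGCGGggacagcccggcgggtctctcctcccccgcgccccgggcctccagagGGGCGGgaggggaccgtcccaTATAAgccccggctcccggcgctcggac
EDIL3 promoter: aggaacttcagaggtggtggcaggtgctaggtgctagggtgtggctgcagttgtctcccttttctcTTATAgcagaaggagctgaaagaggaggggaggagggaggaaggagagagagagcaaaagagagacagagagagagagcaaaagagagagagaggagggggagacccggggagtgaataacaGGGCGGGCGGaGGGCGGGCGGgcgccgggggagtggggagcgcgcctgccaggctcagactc
LOX promoter: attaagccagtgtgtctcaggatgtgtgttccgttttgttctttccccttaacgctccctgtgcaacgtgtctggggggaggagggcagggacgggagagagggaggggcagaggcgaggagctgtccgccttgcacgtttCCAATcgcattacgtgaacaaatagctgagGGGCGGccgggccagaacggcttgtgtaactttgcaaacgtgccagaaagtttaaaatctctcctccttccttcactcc
HTRA1 promoter: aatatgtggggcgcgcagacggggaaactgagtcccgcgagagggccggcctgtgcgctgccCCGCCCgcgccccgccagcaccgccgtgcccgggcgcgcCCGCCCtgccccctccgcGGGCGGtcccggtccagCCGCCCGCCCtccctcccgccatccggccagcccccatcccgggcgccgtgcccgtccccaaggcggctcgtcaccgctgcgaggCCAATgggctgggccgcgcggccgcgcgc
The motifs searched on both strands were the octamer ATGCAAAT bound by POU factors such as Oct4, the cyclic AMP response element TGACGTCA, the CCAAT box (CCAAT), the GC box (GGGCGG) and TATAA. The octamer was in none of the 4 windows, and 1.63% of all 34943 promoter windows of the same length hold it. No match says only that these letters are not in the window. The cyclic AMP response element, held by 1.63% of all windows, was in the FN1 window alone, at positions -183 to -176 from the start. CCAAT was in the windows of FN1, LOX and HTRA1 (32% of all windows), and TATAA was in those of FN1, at -28 to -24, and of EDIL3, on the opposite strand (19% of all windows). GC boxes, held by 42.5% of all windows, were in all 4, with 6 matches for FN1 (some of them overlapping), 5 for HTRA1, 4 for EDIL3 and 1 for LOX. The windows were 76.4% G and C for FN1, 81.2% for HTRA1, 61.2% for EDIL3 and 55.2% for LOX. A match is a stretch of letters and was not tested as a binding site.

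FN1 RNA was lowest in Oct4hi BCCs and in between in Oct4med BCCs. Its brightest probe set (216442_x_at) read 12.74, 12.71, 12.72 and 12.72 in the Oct4low arrays, 11.96 and 11.86 in the Oct4med arrays, and 11.21, 11.32, 11.27 and 11.27 in the Oct4hi arrays. Every Oct4low array lay above every Oct4med array, and every Oct4med array lay above every Oct4hi array. The means were 11.27 ± 0.05 in Oct4hi and 12.72 ± 0.01 in Oct4low BCCs (SD, n = 4 each), a difference of -1.46 ± 0.06 (SE), which is 2.74-fold lower in Oct4hi BCCs. Oct4med BCCs, with a mean of 11.91 ± 0.07 (SD, n = 2), were 0.81 below Oct4low BCCs, or 1.75-fold, and Oct4hi BCCs were a further 0.65, or 1.57-fold, below Oct4med BCCs. Even in Oct4hi BCCs, this probe set stayed far above the medians of the arrays, which lay between 5.05 and 5.14. The study also examined FN1 by real-time PCR and western blot in the same subsets, and those measurements are not part of these data. It expected FN1 in Oct4hi BCCs, as a marker of epithelial-mesenchymal transition.

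The 4 bright probe sets of FN1 gave nearly the same differences. Probe set 210495_x_at averaged 12.68 in Oct4low BCCs, 11.89 in Oct4med BCCs and 11.24 in Oct4hi BCCs. Probe set 211719_x_at averaged 12.51, 11.69 and 11.05 in the same order, and 212464_s_at averaged 12.51, 11.70 and 11.08. Over these 4, the differences between Oct4hi and Oct4low BCCs ran only from -1.46 to -1.43. The suffixes _x_at and _s_at mark probes that can match more than 1 transcript, so the 4 may share sequence and are not independent measurements of the gene.

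The dimmer probe sets of FN1 differed less. Probe set 1558199_at read 5.98, 6.22, 5.48 and 5.99 in Oct4low, 5.35 and 5.35 in Oct4med, and 5.19, 5.11, 4.58 and 4.97 in Oct4hi arrays. Its Oct4hi values straddled the medians of the arrays, so that 8 of the 10 arrays were at or above them. Probe set 214702_at was at or above the medians in the 4 Oct4low arrays only (5.41, 5.30, 5.46 and 5.28), with 4.86 and 4.86 in Oct4med and 4.12 to 4.73 in Oct4hi arrays. It passed the filter through the subset in which it was highest. Probe set 214701_s_at averaged 6.52 ± 0.19 in Oct4low (SD, n = 4), 6.17 ± 0.19 in Oct4med (n = 2) and 5.96 ± 0.17 in Oct4hi BCCs (n = 4), and it alone among the 7 had Oct4hi arrays that overlapped the Oct4med arrays. The differences between Oct4hi and Oct4low BCCs were -0.96 for 1558199_at and for 214702_at and -0.55 for 214701_s_at, against -1.46 for the brightest probe set.

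**Figure D1:**
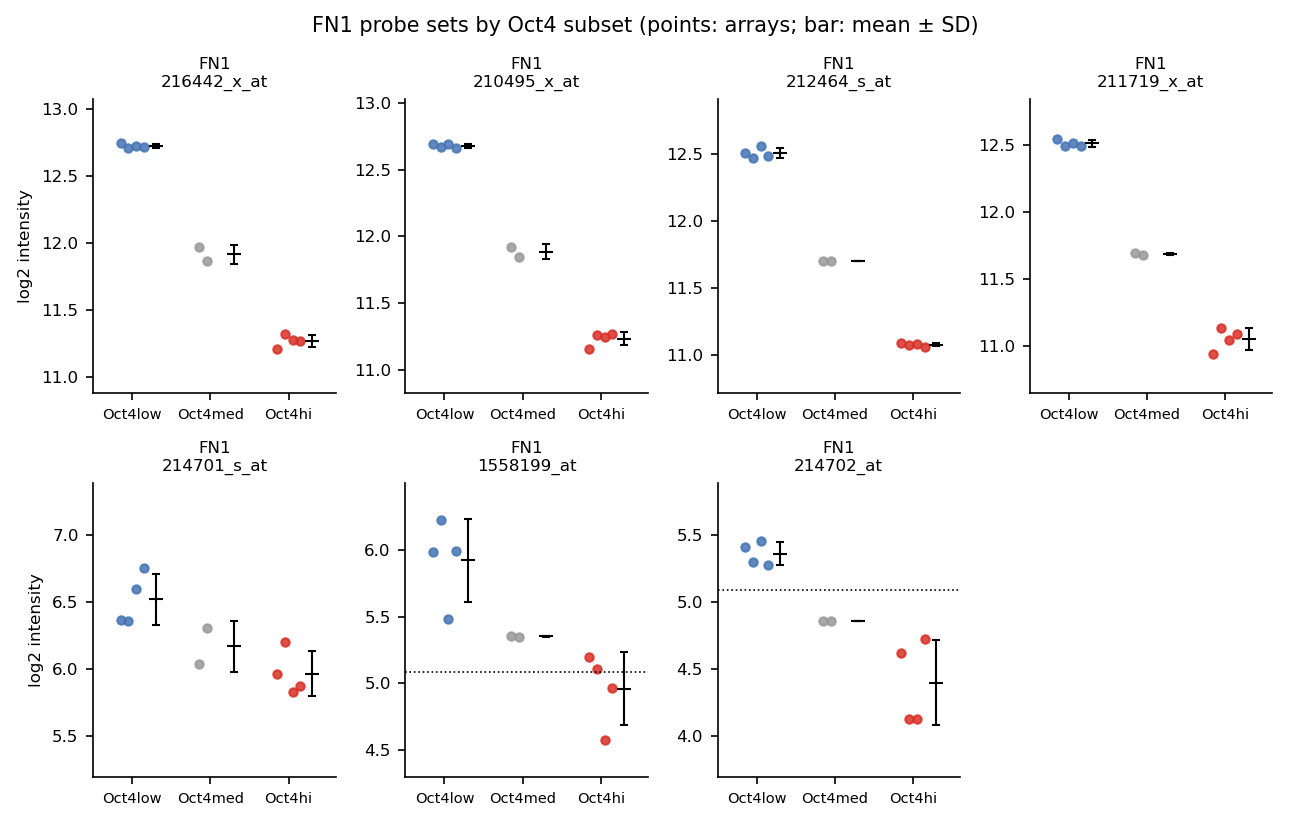
Log2 intensity of each FN1 probe set (1 panel each) in the Oct4low (4 arrays), Oct4med (2 arrays) and Oct4hi BCCs (4 arrays). Points are arrays, bars are the mean with its SD, and the dotted line is the median of the array medians. In 6 of the 7 probe sets the arrays fall in 3 steps that do not overlap, and in 214701_s_at the Oct4med and Oct4hi arrays overlap.

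EDIL3, the secreted integrin ligand, was also lowest in Oct4hi BCCs, and most of its difference from Oct4low BCCs was already present in Oct4med BCCs. Its bright probe set (225275_at) read 11.15, 11.17, 11.24 and 11.16 in Oct4low, 10.36 and 10.33 in Oct4med, and 10.03, 10.05, 10.04 and 10.11 in Oct4hi arrays. The arrays of the 3 subsets did not overlap. The means were 10.06 ± 0.04 in Oct4hi and 11.18 ± 0.04 in Oct4low BCCs (SD, n = 4 each), a difference of -1.12 ± 0.06 (SE) or 2.18-fold. Oct4med BCCs were 0.83 below Oct4low BCCs, and Oct4hi BCCs were 0.29 below Oct4med BCCs.

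The other probe sets of EDIL3 were near or below the medians of the arrays. Probe set 1558643_s_at reached them in 3 Oct4low arrays only, with 5.67, 5.33, 4.96 and 5.40 in Oct4low, 4.99 and 4.84 in Oct4med and 4.69 to 4.97 in Oct4hi arrays, so that Oct4low replicate 3 overlapped the other subsets. Probe set 207379_at was below the medians in all arrays, with means of 4.65 in Oct4low BCCs, 4.51 in Oct4med BCCs and 4.49 in Oct4hi BCCs and overlapping arrays.

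LOX, the cross-linking enzyme, had the smallest difference among the bright probe sets of the 5 genes. Its bright probe set (215446_s_at) read 8.99, 8.90, 8.99 and 8.99 in Oct4low, 8.55 and 8.70 in Oct4med, and 8.53, 8.50, 8.39 and 8.50 in Oct4hi arrays. The subsets did not overlap, although Oct4med replicate 1 lay just above the highest Oct4hi array. The means were 8.48 ± 0.06 in Oct4hi and 8.97 ± 0.05 in Oct4low BCCs (SD, n = 4 each), which differ by -0.49 ± 0.07 (SE) or 1.40-fold. Oct4med BCCs were 0.34 below Oct4low BCCs. Oct4hi BCCs were 0.14 below Oct4med BCCs, with a 95% interval of -0.33 to 0.04 that includes 0, and this value was -0.22 without Oct4med replicate 1 and -0.07 without Oct4med replicate 2. The second probe set of LOX (213640_s_at) was below the medians of all arrays, with means of 4.36 in Oct4low BCCs, 4.48 in Oct4med BCCs and 4.61 in Oct4hi BCCs and overlapping arrays, a difference between Oct4hi and Oct4low BCCs of 0.26 (95% interval 0.01 to 0.50) with the opposite sign to that of the bright probe set.

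HTRA1, the secreted protease, was lowest in Oct4hi BCCs, with Oct4med BCCs close to Oct4low BCCs. Its single probe set (201185_at) read 7.80, 7.82, 7.95 and 7.78 in Oct4low, 7.69 and 7.61 in Oct4med, and 6.49, 6.50, 6.52 and 6.44 in Oct4hi arrays. The Oct4med arrays lay just under the lowest Oct4low array, and the Oct4hi arrays lay well below both. The means were 6.49 ± 0.04 in Oct4hi and 7.84 ± 0.08 in Oct4low BCCs (SD, n = 4 each), a difference of -1.35 ± 0.07 (SE) or 2.55-fold. Oct4hi BCCs differed by -1.16 from Oct4med BCCs, which averaged 7.65 ± 0.06 (SD, n = 2), and Oct4med BCCs differed by -0.19 from Oct4low BCCs.

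MFAP5, the microfibril glycoprotein, was the only one of the 5 genes with a tested probe set that was higher in Oct4hi BCCs. Probe set 209758_s_at read 4.28, 4.13, 4.12 and 4.38 in Oct4low, 3.88 and 3.99 in Oct4med, and 5.92, 6.17, 6.17 and 6.48 in Oct4hi arrays. Only the Oct4hi arrays were above the medians of the arrays, so the probe set passed the filter through the subset in which it was highest, and its Oct4low and Oct4med values are in the dim range of the arrays, so no fold is given and no order is read between those subsets. The means were 6.19 ± 0.23 in Oct4hi and 4.23 ± 0.13 in Oct4low BCCs (SD, n = 4 each), a difference of 1.96 ± 0.11 (SE). Against Oct4med BCCs, which averaged 3.93 ± 0.08 (SD, n = 2), the mean of Oct4hi BCCs was 2.25 higher.

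The other probe sets of MFAP5 stayed below the medians of all arrays. Probe set 213765_at averaged 3.72 in Oct4low BCCs, 3.71 in Oct4med BCCs and 4.11 in Oct4hi BCCs, and its Oct4hi arrays (3.92 to 4.24) lay above those of the other subsets (3.64 to 3.78). Probe set 213764_s_at averaged 3.04, 3.04 and 3.12 in the same order, with overlapping arrays.

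**Figure D2:**
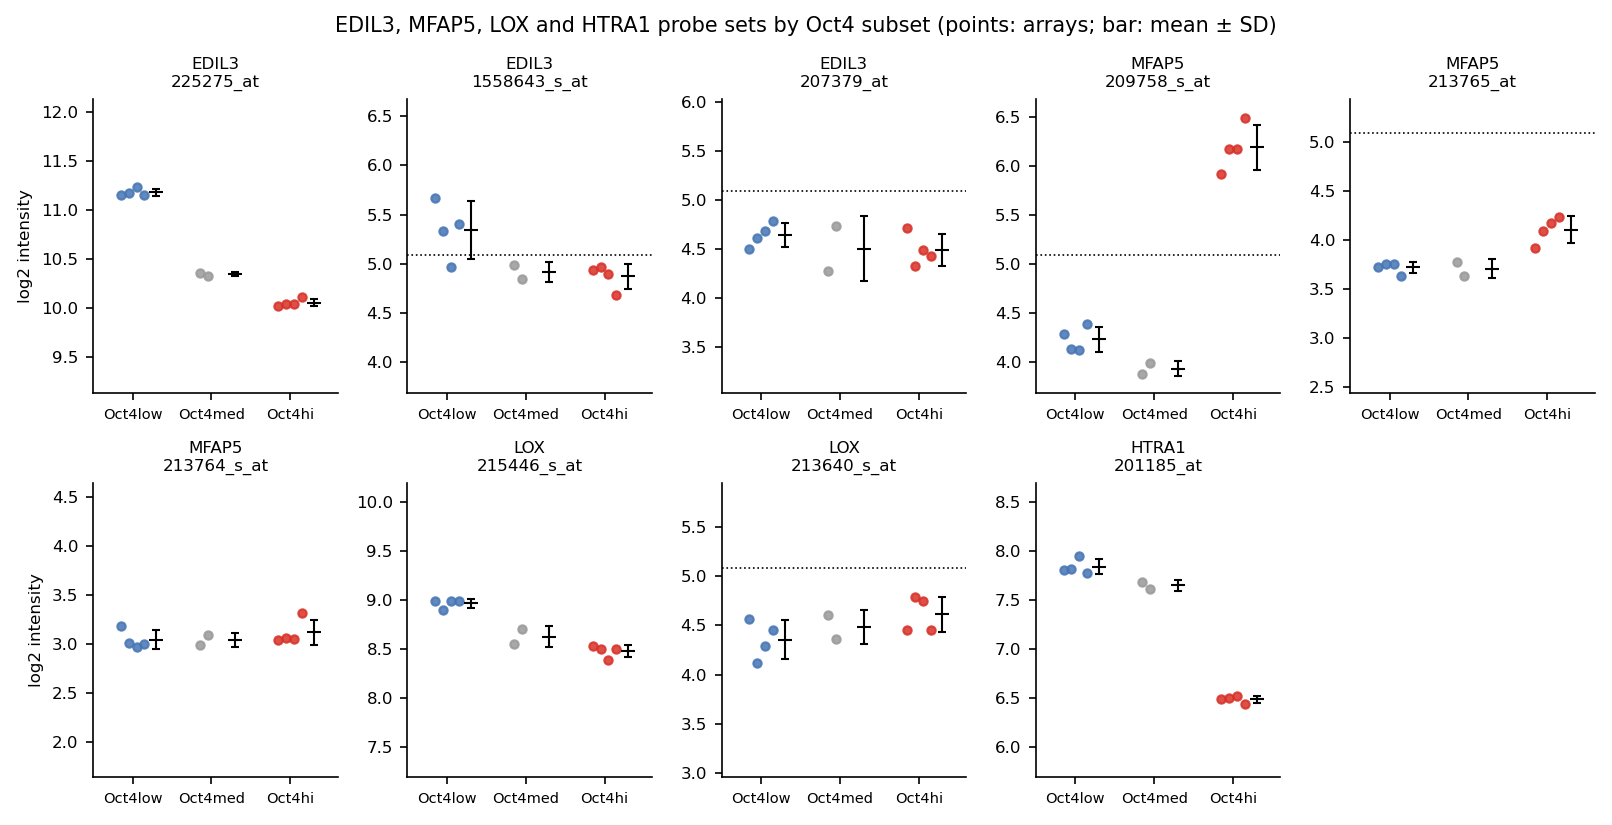
Log2 intensity of the probe sets of EDIL3, LOX, HTRA1 and MFAP5 (1 panel each) in the Oct4low (4 arrays), Oct4med (2 arrays) and Oct4hi BCCs (4 arrays). Points are arrays, bars are the mean with its SD, and the dotted line is the median of the array medians. The bright probe sets of EDIL3, LOX and HTRA1 are lowest in the Oct4hi arrays, and 209758_s_at of MFAP5 crosses the dotted line in the Oct4hi arrays only.

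Among the 12 probe sets that passed the filter, Oct4hi arrays did not overlap Oct4low arrays in 11, of which 10 were lower and 1 was higher in Oct4hi BCCs. Over all 13872 probe sets that passed, 33.8% did not overlap in this comparison (15.2% lower and 18.6% higher), and 34.9% passed limma's test (16.7% lower and 18.2% higher), and nothing is read from the count for the 5 genes, which this comparison chose. Between Oct4med and Oct4low BCCs, which share the Oct4low arrays with it, 11 of the 12, among them the dim MFAP5 209758_s_at, did not overlap and all 11 were lower in Oct4med BCCs, where the share over all probe sets was 40.5% (25.1% lower and 15.4% higher) and 20.7% passed limma's test (15.5% lower and 5.19% higher). Between Oct4hi and Oct4med BCCs, 9 were lower and 1 was higher without overlap, beside 45.2% of all probe sets (18.2% lower and 27.0% higher), and 26.8% passed limma's test (8.61% lower and 18.2% higher). The full order of Oct4low above Oct4med above Oct4hi, with no overlap, was met by 2.36% of all probe sets (328) and by 9 of the 12 here, 6 of them of FN1. This order requires Oct4hi below Oct4low, the comparison that chose the genes, so the 2 shares are not alike. Nothing is read from this count or from those against Oct4med BCCs. The 12 are not independent, since 7 measure 1 gene, and several passed the filter only through the subset in which they were high. The median difference over all probe sets was near 0 in each comparison, at -0.00 for Oct4hi against Oct4low, 0.01 for Oct4med against Oct4low and 0.02 for Oct4hi against Oct4med BCCs.

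**Figure D3:**
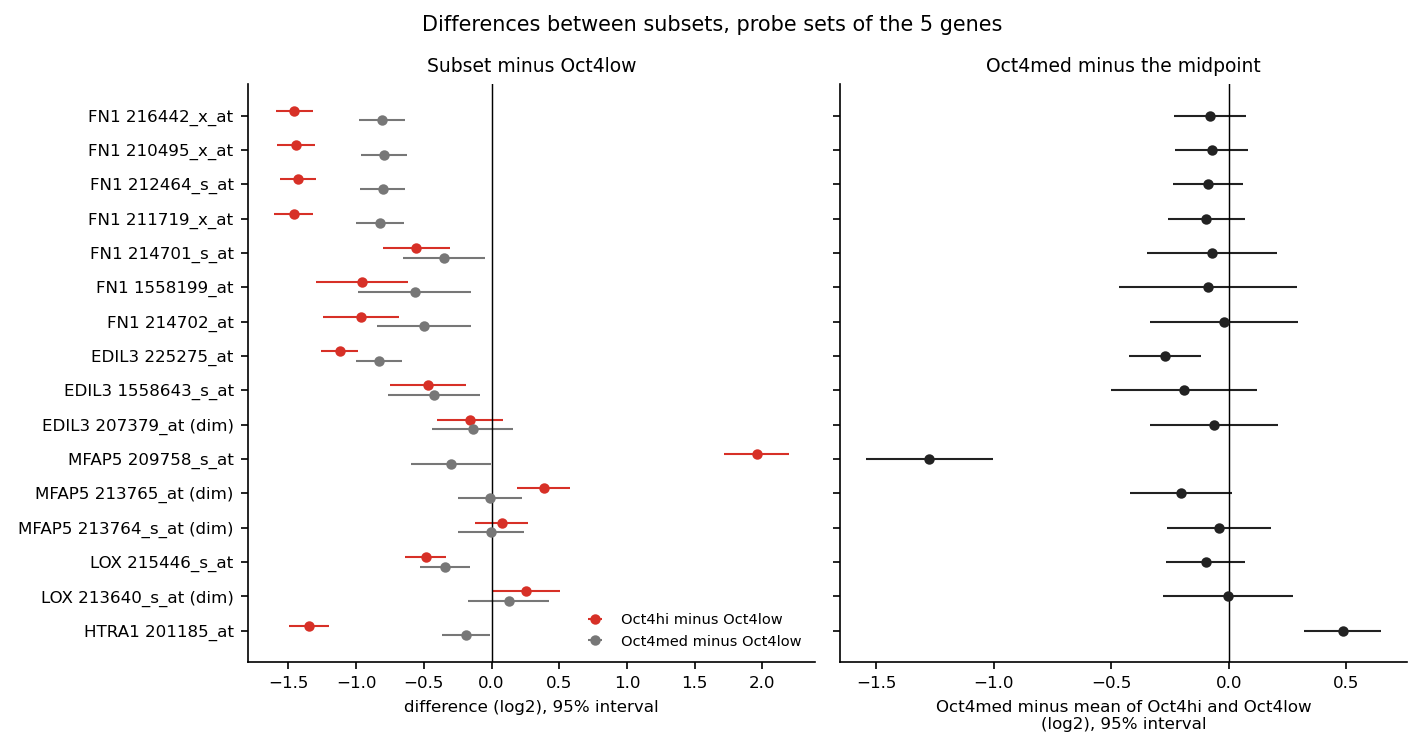
Differences in log2 intensity, with 95% intervals, for each probe set of the 5 genes for Oct4hi (4 arrays) and Oct4med BCCs (2 arrays) against Oct4low BCCs (4 arrays) on the left, and for Oct4med BCCs against the mean of Oct4hi and Oct4low BCCs on the right. Probe sets marked dim did not pass the filter. In the right panel the FN1 probe sets lie near 0, MFAP5 209758_s_at and EDIL3 225275_at lie left of it and HTRA1 lies right of it.

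As an estimate, the place of Oct4med BCCs between the extremes is statistically independent of the difference between Oct4hi and Oct4low BCCs, for which FN1, EDIL3 and HTRA1 are in the study's list. Both are judged by the same spread between arrays, so the p-values are not fully free of the choice. Whether Oct4med values also played a part when the genes were chosen is not known, and the p-values further require that they did not. The place was tested as the difference between Oct4med BCCs and the mean of Oct4hi and Oct4low BCCs with limma, adjusted by Benjamini-Hochberg over all 13872 probe sets, of which 21.0% passed an adjusted p of 0.05 (4.69% above and 16.3% below the midpoint). Probe sets that passed the filter through 1 subset only are described without a test.

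FN1 RNA in Oct4med BCCs was not distinguished from the midpoint. For 216442_x_at the difference was -0.08 (95% interval -0.23 to 0.07, adjusted p = 0.434), and over the 6 probe sets tested the differences ran from -0.10 to -0.07 with adjusted p-values of 0.362 to 0.74. For 214702_at, which passed the filter through Oct4low BCCs, the difference was -0.02. The intervals of the 4 bright probe sets exclude a distance from the midpoint of more than 0.26. As a description, Oct4med BCCs had covered 55.5% of the difference between Oct4low and Oct4hi BCCs in 216442_x_at, and 52.0% to 63.1% over the 7 probe sets. After quantile normalization of the values, the difference in 216442_x_at was -0.71 in Oct4med against Oct4low BCCs and -0.79 in Oct4hi against Oct4med BCCs, so the larger step changed place.

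EDIL3 in Oct4med BCCs was below the midpoint, by -0.27 ± 0.07 in 225275_at (SE, 95% interval -0.42 to -0.12, adjusted p = 0.0178 by limma), and both Oct4med arrays were on the Oct4hi side. Oct4med BCCs had covered 74.2% of the difference. The call did not hold under several alternatives, among them leaving out either Oct4med array (adjusted p = 0.0941 without replicate 1 and 0.07 without replicate 2) and normalizing the values again by quantiles (-0.17, adjusted p = 0.112). With the replicate number as a block it was also lost (adjusted p = 0.101). The dimmer 1558643_s_at, which passed the filter through Oct4low BCCs, differed from the midpoint by -0.19.

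HTRA1 in Oct4med BCCs was above the midpoint by 0.49 ± 0.08 (SE, 95% interval 0.32 to 0.65, adjusted p = 0.000962 by limma), and both Oct4med arrays were on the Oct4low side. Oct4med BCCs had covered 14.1% of the difference between Oct4low and Oct4hi BCCs. The adjusted p stayed under 0.05 in every alternative tried, between 0.000238 and 0.025.

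MFAP5 209758_s_at lay -1.28 from the midpoint in Oct4med BCCs, which is given without a test, since only the Oct4hi arrays carried the probe set past the filter and a high level there by itself puts Oct4med BCCs below the midpoint. LOX, which is described without a test, lay -0.10 from the midpoint (95% interval -0.27 to 0.07), with 70.3% of its difference covered in Oct4med BCCs. The value rested on the 2 Oct4med arrays, with -0.02 without replicate 1 and -0.18 without replicate 2, and it was -0.00 after quantile normalization. Differences between the genes in this share were not tested.

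The probe sets of other genes whose profiles over the 10 arrays lay nearest to each gene were taken by the smallest root mean square difference after each profile was centred on its mean. For FN1 (216442_x_at) they were SLCO4A1-AS1 at 0.0784, VIPR1, a receptor for vasoactive intestinal peptide, at 0.103 and SEMA3C, a secreted semaphorin, at 0.126. SLCO4A1-AS1 averaged 9.92 in Oct4low BCCs, 9.19 in Oct4med BCCs and 8.56 in Oct4hi BCCs. For EDIL3 they were GNG11, a G protein gamma subunit, at 0.0979, FAM20C, the kinase that phosphorylates secreted proteins, at 0.0997 and SLCO4A1, an organic anion transporter, at 0.101. SLCO4A1 averaged 8.17 in Oct4low BCCs, 7.58 in Oct4med BCCs and 7.11 in Oct4hi BCCs. These distances are to be set against the SD of the genes' own profiles over the arrays, 0.688 for FN1 and 0.542 for EDIL3.

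LOX was nearest to OTUB2, a deubiquitinase, at 0.0442, RALGDS at 0.0515 and VGLL4 at 0.0551, but its own profile moved little (SD 0.24). HTRA1 (SD 0.67) was nearest to SPRY1, an inhibitor of receptor tyrosine kinase signalling, at 0.103, APOBEC3G, a cytidine deaminase, at 0.106 and PLXNA1, a semaphorin receptor, at 0.12. SPRY1 averaged 7.37 in Oct4low BCCs, 7.32 in Oct4med BCCs and 6.06 in Oct4hi BCCs, so that here too most of the difference lay between Oct4med and Oct4hi BCCs. MFAP5 (SD 1.08) was nearest to NPPB, which encodes a natriuretic peptide, at 0.16, MAOA, monoamine oxidase A, at 0.205 and ALPP, the placental alkaline phosphatase, at 0.216. ALPP and APOBEC3G have close paralogs whose transcripts may be read by the same probes. NPPB averaged 5.63 in Oct4low BCCs, 5.23 in Oct4med BCCs and 7.30 in Oct4hi BCCs. The genes were picked from all tested probe sets for this likeness, so the likeness has no test.

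Other genes of the same matrix were counted in 5 lists of textbook members, without the 5 genes, each gene by its brightest tested probe set. The lists were chosen with earlier results of these data known. The shares and p-values of list genes are not free of that choice, and no enrichment is read from them. In all, 45 of the 77 list genes were tested. In Oct4hi against Oct4low BCCs, 11 rose, 13 fell and 21 did not pass limma's adjusted p of 0.05 (47.3% of the 74 tested probe sets of these genes passed, beside 34.9% of all tested probe sets). In Oct4med against Oct4low BCCs, 2 rose, 9 fell and 34 did not pass, beside 27% of the 74 probe sets and 20.7% of all tested probe sets, and the total of 11 was 6 under several alternatives and 5 without Oct4med replicate 1. In Oct4hi against Oct4med BCCs, 16 rose, 9 fell and 20 did not pass, beside 50% of the 74 probe sets and 26.8% of all tested probe sets. No direction was shared by the matrix genes as a whole, with medians of -0.02, -0.04 and 0.04 in the 3 comparisons. For TNS1, ITGB5, LTBP1, LOXL4 and PLOD2, only 1 of 2 tested probe sets passed in Oct4hi against Oct4low BCCs. The same held for TLN1 and TNC in Oct4hi against Oct4med BCCs. In Oct4med against Oct4low BCCs, SDC2 passed in 2 of 3 probe sets and THBS1 in 4 of 5. No called probe set of these genes had the opposite sign.

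Among 11 tested genes of fibronectin assembly and cell adhesion, 4 rose, 1 fell and 6 did not pass in Oct4hi against Oct4low BCCs (median 0.20). TNS1, which links integrins to actin, rose by 0.63 ± 0.08 (SE, adjusted p = 0.000211), FERMT2, an integrin activator, rose by 0.51 ± 0.11 (adjusted p = 0.00452), and ITGB3, the beta subunit of a vitronectin receptor, rose by 0.43 ± 0.11 (adjusted p = 0.0118). ITGB5, another beta subunit that pairs with the alpha v integrin, fell by 0.63 on the log2 scale (difference -0.63 ± 0.07, adjusted p = 4.43e-05 by limma). In Oct4med against Oct4low BCCs, SDC2, a heparan sulfate proteoglycan of the cell surface, was the 1 gene of the list called, at -0.30 (adjusted p = 0.0274), which did not pass when arrays were shifted to a common median (adjusted p = 0.0547). SDC2 was 0.71 higher in Oct4hi than in Oct4med BCCs (adjusted p = 0.000144), where 3 genes of the list rose and 2 fell. TLN1, which couples integrins to actin, rose there by 0.36 ± 0.09 (adjusted p = 0.0148).

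Among 13 tested genes of elastic fibres and microfibrils, the structures that MFAP5 belongs to, 1 rose, 6 fell and 6 did not pass in Oct4hi against Oct4low BCCs (median -0.25), whereas MFAP5 was higher in Oct4hi BCCs. EFEMP1, a fibulin, differed by -0.52 ± 0.07 (SE, adjusted p = 0.000178), LTBP1, which tethers latent TGF-beta to the matrix, by -0.50 ± 0.08 (adjusted p = 0.000679), and FBLN1, another fibulin, by -0.41 ± 0.07 (adjusted p = 0.00162). ADAMTSL4, a microfibril-associated protein, rose by 0.61 ± 0.09 (adjusted p = 0.000419). In Oct4med against Oct4low BCCs, 2 genes fell and none rose, THSD4 at -0.41 (adjusted p = 0.00433) and LTBP3 at -0.30 (adjusted p = 0.0398), and LTBP3 did not pass after quantile normalization (adjusted p = 0.167) or a shift to a common median (adjusted p = 0.0559). In Oct4hi against Oct4med BCCs, 2 rose and 3 fell.

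Among 8 tested genes of the lysyl oxidase family and collagen cross-linking, 2 rose, 2 fell and 4 did not pass in Oct4hi against Oct4low BCCs (median 0.01). LOXL4, a LOX-like enzyme, rose by 0.58 ± 0.07 in 1 of its 2 tested probe sets (SE, adjusted p = 0.000142 by limma), opposite in sign to the difference in the bright probe set of LOX. PLOD2 and PLOD1, which hydroxylate lysines of collagen, differed by -0.37 ± 0.07 and -0.31 ± 0.07 (adjusted p = 0.00225 and 0.00436). LOXL1 differed by 0.25 ± 0.07 (adjusted p = 0.0147), but not after quantile normalization (0.17, adjusted p = 0.07). In Oct4med against Oct4low BCCs the 1 call was PCOLCE2, an enhancer of procollagen processing, which rose by 0.39 ± 0.10 (adjusted p = 0.0154).

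Among 5 tested genes of the list of the HTRA family and secreted serine proteases with their inhibitors, 1 rose and 4 did not pass in Oct4hi against Oct4low BCCs. No HTRA gene was among the 5. HTRA4, the only HTRA gene of the list with values, was below the medians of all arrays. The gene that rose was SERPINE2, an inhibitor of thrombin and plasminogen activators, which averaged 10.53 ± 0.08 in Oct4hi and 9.72 ± 0.08 in Oct4low BCCs (SD, n = 4 each) and rose by 0.81 ± 0.07 (SE, adjusted p = 9.03e-06 by limma). PCSK5, a proprotein convertase, was lowest in Oct4med BCCs. It differed by -1.08 ± 0.15 in Oct4med against Oct4low BCCs (adjusted p = 0.000344 by limma). In Oct4hi against Oct4med BCCs it differed by 0.93 ± 0.15 (adjusted p = 0.000948 by limma). Its Oct4med arrays, with a mean of 4.77, were below the medians of their arrays, so the size of these differences is uncertain. PLAU and PLAT, the plasminogen activators, differed by 0.29 and -0.25 in Oct4med against Oct4low BCCs (adjusted p = 0.0358 and 0.0423 by limma), which did not pass after a shift to a common median (adjusted p = 0.0542 and 0.078). In Oct4hi against Oct4med BCCs, 4 genes of the list rose and 1 fell. After quantile normalization, 2 rose and 1 fell there.

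Among 8 tested matricellular proteins and integrin-binding ligands, the group of EDIL3, 3 rose, 4 fell and 1 did not pass in Oct4hi against Oct4low BCCs (median -0.25). CCN3, a matricellular regulator of growth, differed by -0.66 ± 0.08 (SE, adjusted p = 7.38e-05), SPARC, a collagen-binding glycoprotein, by -0.40 ± 0.08 (adjusted p = 0.0019) and TGFBI, an integrin-binding matrix protein, by 0.41 ± 0.06 (adjusted p = 0.000442). TNC, tenascin C, which binds fibronectin, averaged 7.98 ± 0.14 in Oct4low (SD, n = 4), 6.87 ± 0.06 in Oct4med (n = 2) and 7.39 ± 0.09 in Oct4hi BCCs (n = 4). It fell in Oct4hi against Oct4low BCCs (-0.58, adjusted p = 0.000326) and in Oct4med against Oct4low BCCs (-1.11, adjusted p = 2.41e-05), and was 0.53 higher in Oct4hi than in Oct4med BCCs (adjusted p = 0.00318). In Oct4med against Oct4low BCCs, 4 genes of the list fell and 4 did not pass, whereas 3 fell and 1 rose after quantile normalization and 3 fell after a shift to a common median. MFGE8 (-0.26, adjusted p = 0.0468 by limma) was lost under both (adjusted p = 0.164 and 0.0828). THBS1, thrombospondin 1, was among the 4 that fell, at -0.67 ± 0.11 (adjusted p = 0.00156). In Oct4hi against Oct4med BCCs, 5 rose, 1 fell and 2 did not pass, and MFGE8, the integrin ligand most similar in its domains to EDIL3, rose by 0.52 ± 0.08 (adjusted p = 0.00113), where EDIL3 was 0.29 lower.

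**Figure D4:**
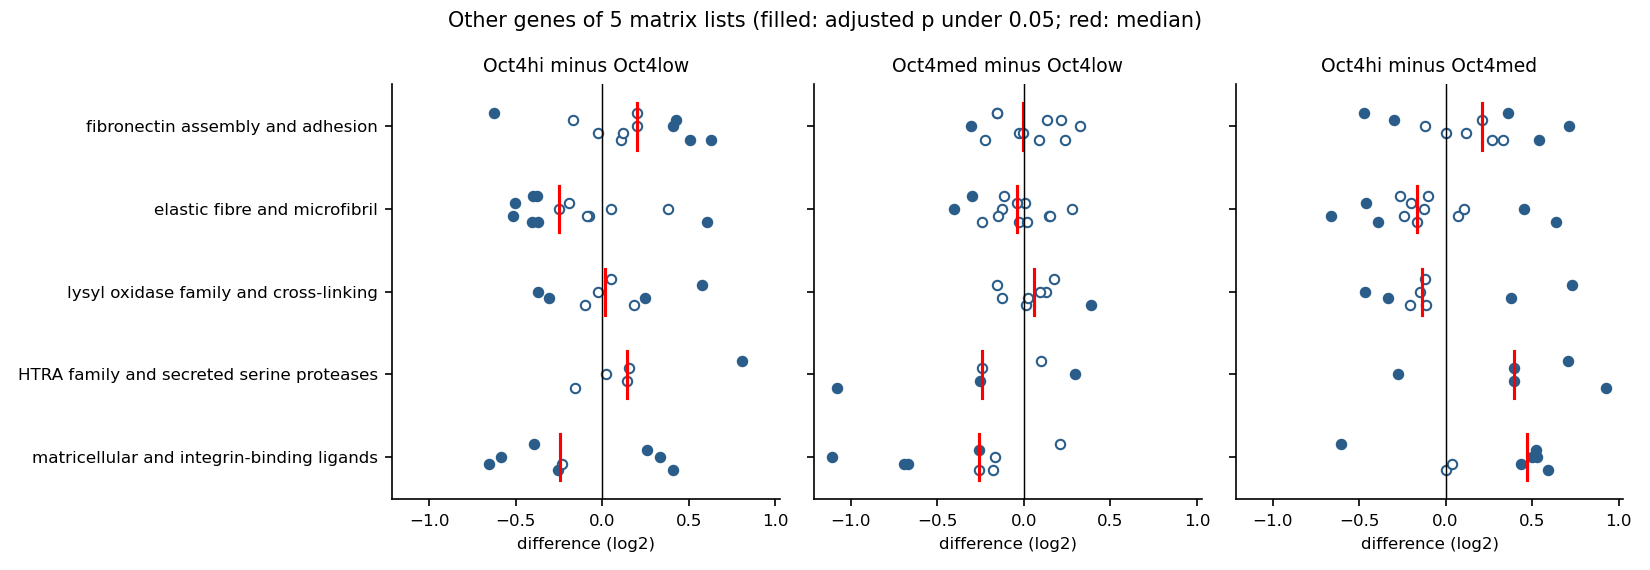
Differences in log2 intensity for the tested genes of the 5 matrix lists (rows of points, 1 point per gene by its brightest tested probe set) in Oct4hi against Oct4low, Oct4med against Oct4low and Oct4hi against Oct4med BCCs, from 4 Oct4hi, 2 Oct4med and 4 Oct4low arrays. The points of each list lie on both sides of 0 in every comparison, and filled points passed an adjusted p of 0.05.

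Markers of the line were partly present. CD44 and CAV1 were bright in all arrays, whereas the probe set of VIM here was below the medians of all arrays. That of MSN was dim too, at or above the median in 1 Oct4med array only. CD44 and CAV1 differed by -0.35 each in Oct4hi against Oct4low BCCs (adjusted p = 0.00178 and 0.00142 by limma). The summed linear intensity of the 4 mesenchymal markers on the arrays (of 5) was 5940 to 6370 in Oct4hi and 7700 to 8040 in Oct4low arrays. Most of this sum came from CD44 and CAV1. Of the epithelial markers (4 of 5 on the arrays), CDH1 was below the medians of all arrays and the sum was 451 to 473 in Oct4hi and 513 to 531 in Oct4low arrays, with GATA3 at -0.76 (adjusted p = 7.26e-05 by limma). EPCAM, ESR1 and GATA3 were at or above the medians of all arrays. Sums for fibroblast markers (5 of 6 on the arrays, with LUM and COL1A2 dim) were 517 to 545 in Oct4hi and 489 to 603 in Oct4low arrays, those for leukocyte markers (3 of 4, with PTPRC dim) 77.3 to 96.9 and 89 to 108, and those for endothelial markers (2 of 4, with KDR dim) 179 to 191 and 240 to 273. Other members of these lists were not dim. COL1A1, PDGFRB, DCN, CD3E and PECAM1 were at or above the medians of all arrays, and CD14 was in part of them. In Oct4low BCCs, COL1A1 averaged 8.39, PECAM1 7.93 and CD3E, closer to the medians, 5.44. The 28S control probe set nearest the 5′ end was lower in Oct4med BCCs, at 12.70 ± 0.09 (n = 2), against 13.57 ± 0.03 in Oct4hi and 13.60 ± 0.07 in Oct4low BCCs (SD, n = 4 each). The middle 28S probe set was lower there too, with means of 11.50 in Oct4med, 11.87 in Oct4hi and 11.98 in Oct4low BCCs. The 28S probe set nearest the 3′ end averaged 5.27, 5.21 and 5.30 in the same order, and the 18S probe set 12.98, 13.14 and 12.84. The part of these values in the results was not tested.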

How the data were processed

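The values were deposited by the authors as log2 intensities of 25750 probe sets in 10 arrays. Per the methods of the study, the authors corrected the background, log2-transformed and RMA normalized the intensities in BRB-Array Tools and left out features near background or with little change, which favours probe sets that vary. The genome build is not given in the sources used here. Gene symbols came from the platform annotation (18683 probe sets with 1 symbol, 799 with several and 6268 with none). The 23 control probe sets were not tested.

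Probe sets that reached the median of their array in 2 or more arrays (13872) were fitted with limma 3.58.1 in R 4.3.3, with 1 mean per subset. The p-values are two-sided, with Benjamini-Hochberg adjustment across these probe sets. The random variance model that the methods name was not run. The script was tested on simulated data. The named genes are every probe set of the 5 genes, from each list up to 4 genes with the largest called difference per comparison, and the 3 nearest profiles per gene. FN1, EDIL3, LOX, HTRA1, MFAP5 and the lists were chosen with earlier results of these data known. The labels call the arrays of a subset biological replicates and do not say whether a number marks a shared experiment, and p-values measure the spread between these arrays only. The number of arrays, 2 of Oct4med BCCs above all, limits the precision. Alternatives were no filter, a 75th percentile filter, quantile normalization of the values, a shift to a common median and a robust prior with a trend on intensity. Further ones were array weights, fits restricted to the compared subsets, a t-test, a replicate block, every tested probe set of the list genes, and each array left out. The t-test was an ordinary one between 2 subsets with the same Benjamini-Hochberg threshold. It is not the test of the study's methods, which uses the random variance model.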

Additional observations from a re-analysis of the deposited data

Results flagged for a closer look

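In each group of 4 arrays, the highest or lowest array was set against the nearest of the others, and 2 of the 32 groups tested had a gap, as a share of the range of the group, above Dixon's critical value for 4 values. Chance gives such a gap in about 5 of 100 groups. In Oct4low BCCs, LOX 215446_s_at had 1 low array, replicate 2 at 8.90, where the other arrays lay at 8.99, and the gap was 0.942 of the range. In Oct4hi BCCs, MFAP5 213764_s_at, which was dim in all arrays, had 1 high array, replicate 4 at 3.32, where the others lay between 3.05 and 3.07, and the gap was 0.919 of the range.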

How the results depend on the processing

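For differences of the 5 genes between 2 subsets, 608 values under the alternatives moved by less than the spread between replicates and 28 moved by more, and none that was called changed sign. HTRA1 kept its direction and stayed past the threshold for Oct4med BCCs against the midpoint under every alternative run for it. EDIL3 225275_at at -0.27 (adjusted p = 0.0178 by limma) did not pass with no filter (-0.27, adjusted p = 0.0681), after quantile normalization (-0.17, adjusted p = 0.112), with array weights (-0.27, adjusted p = 0.0508), with the replicate number as a block (-0.25, adjusted p = 0.101) or without either Oct4med array (-0.29 to -0.26). The 4 bright FN1 probe sets, never called, changed sign after quantile normalization (216442_x_at 0.0391, 210495_x_at 0.0384, 212464_s_at 0.0584 and 211719_x_at 0.0266), as did 214701_s_at without Oct4med replicate 1 (range with 1 array left out -0.208 to 0.0637) and 214702_at without Oct4hi replicate 1 or 4 (range -0.0648 to 0.0356). Quantile normalization also moved HTRA1 in Oct4med against Oct4low BCCs to -0.10, where it was -0.19, and LOX 215446_s_at in Oct4hi against Oct4med BCCs to -0.27, where it was -0.14.

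The number of probe sets called in Oct4med against Oct4low BCCs, 2865, was 1852 with array weights, 1553 with the replicate block, 1111 by the methods' t-test and 1522 to 2807 with 1 array left out. In Oct4hi against Oct4med BCCs, 3713 became 2231 with the block, 1866 by the methods' t-test and 1425 to 3885 with 1 array left out. Against the midpoint, 2912 became 1695 with array weights, 1502 with the block and 928 to 2953 with 1 array left out. With 1 array left out, each lowest value was without Oct4med replicate 1. The 11 list genes called in Oct4med against Oct4low BCCs were 6 with no filter, a common median, array weights, the block, only the 2 subsets or the methods' t-test, 5 to 10 with 1 array left out, and 20 when every tested probe set was counted. Quantile normalization moved the share of calls that were higher to 43.4% in Oct4med against Oct4low BCCs (25.1% as deposited), to 51.5% in Oct4hi against Oct4med BCCs (67.8% as deposited) and to 43.3% against the midpoint (22.3% as deposited). The cause was not tested.

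The replicate numbers showed no clear pairing of the arrays, which cannot exclude that same-numbered arrays came from a shared experiment. Deviations from the subset means correlated at 0.277, -0.211, -0.0554 and -0.0747 between same-numbered Oct4hi and Oct4low arrays, and 1 of 4 Oct4hi arrays correlated best with its own number. With 2 Oct4med arrays, depth of replication limits every value of that subset.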
